A study of Canis lupus familiaris with 6 samples.

Results

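The genes of cholesterol and fatty acid synthesis were followed in MDCK cells, an epithelial line from dog kidney, on single-colour Agilent canine arrays. The set held 36 genes, listed by name, and each was read through the array probe that carries its symbol, taking the brightest probe where there were several. Of the 36 genes, 32 were found under their symbol among 43603 features, and all 32 were well above background on every array. The cells of all samples carried mCherry-β-catenin Δ131, a β-catenin that lacks its first 131 residues and escapes degradation (β-cat ΔN), together with GFP-tagged RasV12, an active Ras protein expressed only under tetracycline (pTR). These β-cat ΔN/RasV12 cells were grown alone (single culture, 3 arrays) or were outnumbered 10 to 1 by β-cat ΔN cells without RasV12 (mix culture, 3 arrays). Both cultures had 24 h of tetracycline before GFP-positive cells were sorted and their RNA was labelled with Cy3. Both cultures thus carried the β-catenin mutant and the induced RasV12, and they differed in the presence of the neighbouring cells. Nothing in the labels says whether replicates were separate cultures, so p-values measure the spread between these samples, which may be technical.

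Cells build cholesterol from acetyl-CoA through mevalonate, farnesyl diphosphate, squalene and lanosterol, and they build fatty acids from the same precursor through malonyl-CoA. Transcription of most of these enzymes is driven by the SREBP factors, which are held in the endoplasmic reticulum by SCAP and INSIG proteins when sterols are plentiful and are released to the nucleus when sterols run low. Because the enzymes share this control, they tend to be read as a group, and INSIG1 is itself a target of SREBP.

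The probes behind the main results are 60 bases long. The following are shown because they read genes of the sterol branch with some of its largest changes, and they are given in lower case with no base marked. Positions are those of the array design on CanFam3.1. No annotation of exons on that build was used.
IDI1 (chr2:33929294-33929353, plus strand): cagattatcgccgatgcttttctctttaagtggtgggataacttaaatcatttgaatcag
FDPS (chr7:42241857-42242005, minus strand): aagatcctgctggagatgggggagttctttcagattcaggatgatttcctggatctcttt
SQLE (chr13:23017743-23017802, plus strand): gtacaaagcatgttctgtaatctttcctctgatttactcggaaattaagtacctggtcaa
SREBF2 (chr10:23452703-23452762, minus strand): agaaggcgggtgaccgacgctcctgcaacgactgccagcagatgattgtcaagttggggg
INSIG1 (chr16:18263836-18264399, plus strand): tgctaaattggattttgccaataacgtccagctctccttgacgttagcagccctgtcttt
The FDPS and INSIG1 probes cover 149 and 564 bases of the genome, more than their own length, as a probe across a splice junction would. The IDI1 and INSIG1 probes shown are further probes of these genes, not the brightest ones.

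The arrays lay on 2 slides, and this bears on every value that follows. Slide 1 held replicate 1 of each culture and slide 2 held replicates 2 and 3. Values are log2 of the background-subtracted signal minus the 75th percentile of the array, called the normalised signal. A normalised signal of 0 is thus that percentile. On each array 61.11% to 65.66% of spots passed as well above background. With culture in the limma fit, 47.2% of the 26623 probes tested differed between slides at an adjusted p under 0.05, as did 16 of the 32 genes, 11 of them brighter on slide 2. In the authors' own table of the same arrays, the columns of mix replicates 2 and 3 matched each other's scanner file (correlations of 0.977 and 0.979) better than their own (0.465 and 0.433), so the identity of these 2 arrays is unsettled, which does not affect means over slide 2.

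As a group the lipid synthesis genes read slightly lower in mix culture, but no gene passed the test. Of the 32 genes, 29 had a lower mean in mix culture and 3 a higher one (MVD, SCD5 and ELOVL5). The median log2 change was -0.19, against -0.05 over all probes tested, of which 57.96% were lower. In RNA of sorted cells, fewer cells of a type and less RNA per cell cannot be told apart. limma called none of the 32 genes at an adjusted p under 0.05, where 0.883% of all probes tested were called, and their lowest adjusted p was 0.609. None reached an unadjusted p under 0.05 either, against 8.71% of all probes. The methods' t-test also called none after adjustment (0.03% of all probes) and 1 before it (9.73% of all probes). With the slide added to the limma fit there were again 0 calls among the 32 genes, where 7.2% of all probes were called, and 5 had an unadjusted p under 0.05 against 25.9% of all probes. With the replicate number as a block none was called (5.25% of all probes), and 4 had an unadjusted p under 0.05 (22.8% of all probes). A fit of the authors' table, which is centred within each slide, called FADS2 (adjusted p = 0.019) and SREBF2 (adjusted p = 0.0429), where it called 15.3% of all probes. That fit had no slide term and did not account for the centring, so its p-values can be too low. In the limma fit of the scanner values with slide, the adjusted p was 0.0815 for FADS2 and 0.0847 for SREBF2.

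**Figure D1:**
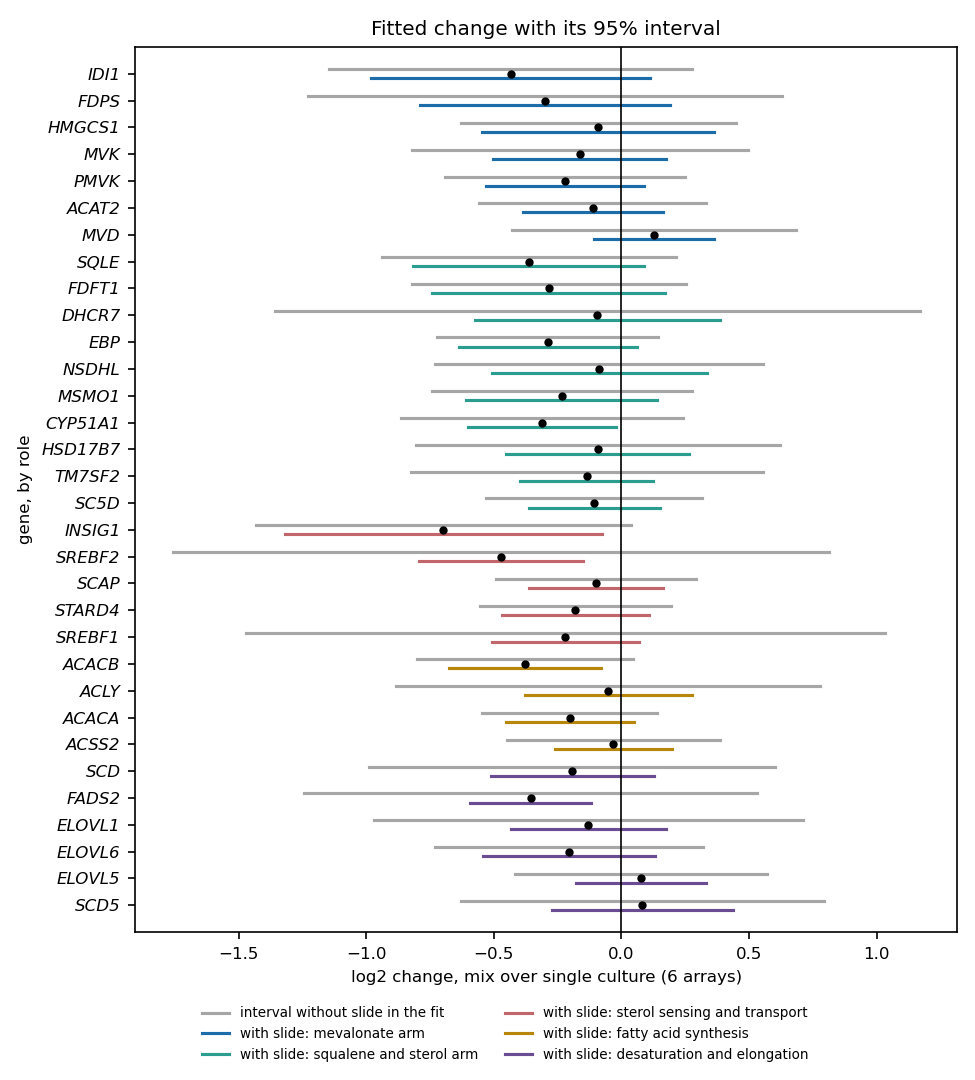
Fitted log2 change of each of the 32 genes, mix over single culture (x axis, points), with its 95% interval without slide in the fit (grey) and with it (coloured by role), over 6 arrays. Every grey interval spans 0; with slide in the fit the intervals of CYP51A1, INSIG1, SREBF2, ACACB and FADS2 lie below 0 before adjustment for multiple testing.

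The lower values came mainly from slide 1. On slide 1, where 1 mix array met 1 single array, 30 of the 32 genes were lower in mix culture (56.29% of all probes). Their median log2 difference was -0.47, against -0.06 over all probes tested. On slide 2, where the means of 2 arrays were set against each other, 18 of the 32 were lower (57.59% of all probes). The median difference there was -0.02, against -0.04 over all probes. A value lower by at least 1.5-fold was seen for 13 of the 32 genes on slide 1, where 7.08% of all probes lay that low, and for none on slide 2, where 2.63% of all probes did. All 13 belong to sterol synthesis or its control. FASN, a gene of fatty acid synthesis kept apart from the 32 for want of a probe under its symbol, differed by -0.69 on slide 1. The nearest short of that limit were SCD, of the desaturation group, and PMVK, of the mevalonate arm, both at -0.58, and the nearest past it was MVK at -0.60. The median normalised signal over the 32 genes was 1.40 in single replicate 1 and 1.00 in mix replicate 1, and lay between 1.51 and 1.56 on the 4 arrays of slide 2. Mix replicate 1 gave the lowest of the 6 values for 19 of the 32 genes, while it was the lowest array for 23.4% of all probes tested. In the fit without slide, leaving that array out, 17 of the 32 genes were lower in mix culture and the median fitted change was -0.04, against -0.05 over all probes.

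**Figure D2:**
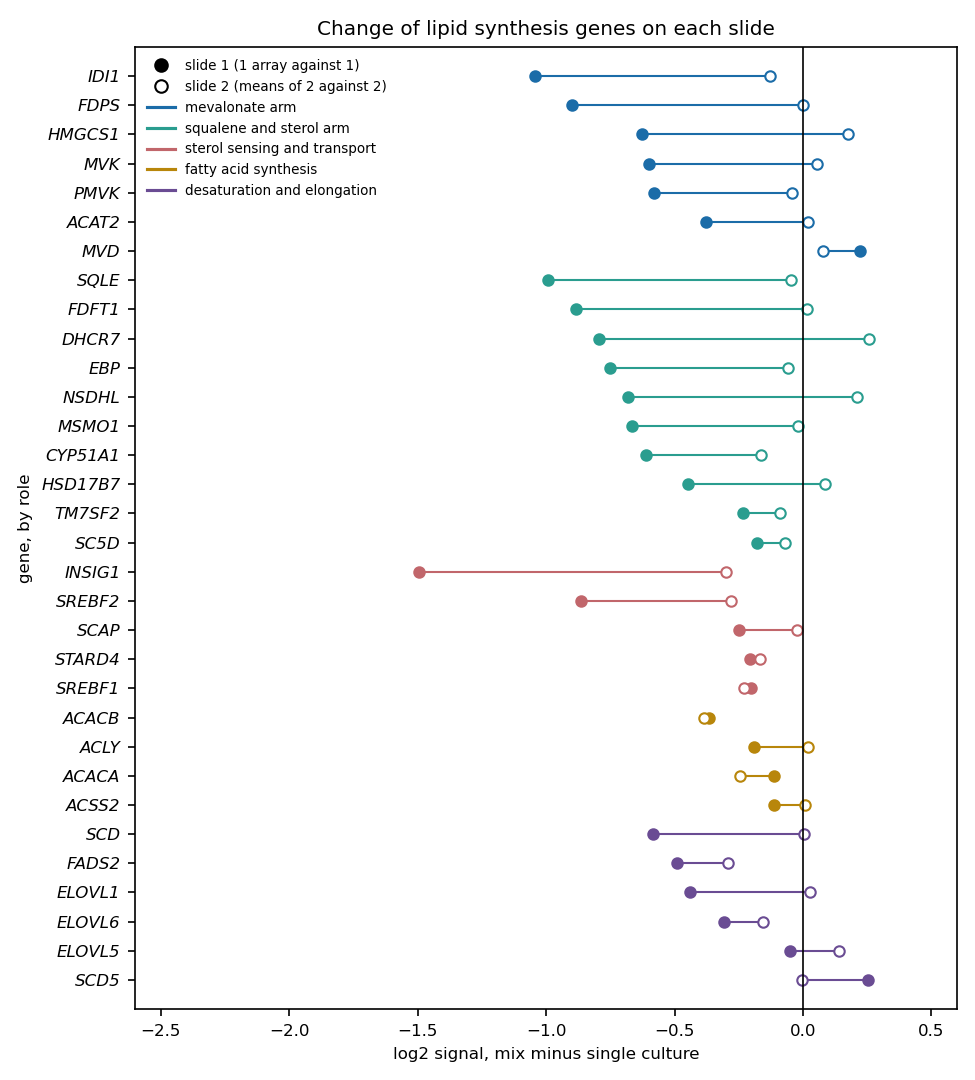
Difference in normalised signal between mix and single culture (x axis, log2) for each of the 32 genes on slide 1 (filled circles, 1 array against 1) and on slide 2 (open circles, means of 2 arrays against 2), coloured by role. The filled circles of the mevalonate arm and of the squalene and sterol arm reach from -1.05 to 0.22, while their open circles stay between -0.16 and 0.26.

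**Figure D3:**
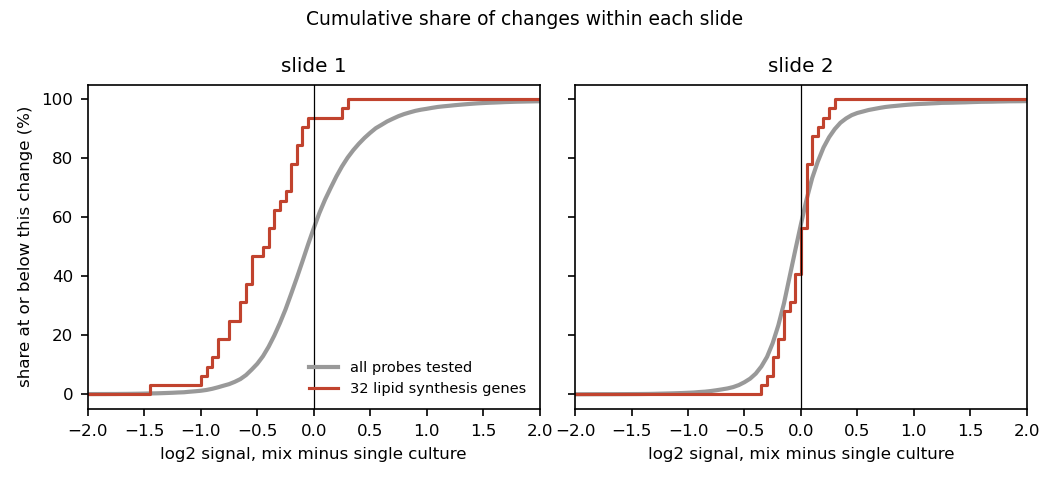
Cumulative share (y axis, %) of differences in normalised signal between mix and single culture (x axis, log2) on each slide, for the 32 lipid synthesis genes (red) and all 26623 probes tested (grey). The red curve runs to the left of the grey one on slide 1, with medians of -0.47 and -0.06, and close to it on slide 2, with medians of -0.02 and -0.04.

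Whether the change differed between slides was tested with an interaction term of culture and slide in limma. This test was chosen after the data were seen. None of the 32 genes was called, with a lowest adjusted p of 0.304 for DHCR7, and 0.0376% of all probes were called. The difference between cultures was higher on slide 2 than on slide 1 for 27 of the 32, and for 13920 of all 26623 probes tested. At an unadjusted p under 0.05 there were 13 of the 32 genes, against 9.14% of all probes. The 13 held 10 of the 17 genes of the mevalonate and squalene arms, INSIG1, SREBF2 and SCD. With 1 array of each culture on slide 1, the interaction has no replicate there, and slide, replicate 1 and scanner settings cannot be told apart.

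In the mevalonate arm, 6 of 7 genes were lower in mix culture and none was called. IDI1 isomerises isopentenyl diphosphate. Its normalised signal was 3.89, 2.66 and 3.40 in single replicates 1 to 3 and 2.85, 2.91 and 2.90 in the mix replicates. The 3 mix values lay close together, and single replicate 2 fell below all of them, so the groups overlapped. The log2 change was -0.43 (SE 0.30, n = 3 against 3; 95% interval -1.14 to 0.28; limma, adjusted p = 0.813). FDPS makes farnesyl diphosphate, the branch point to sterols and to prenylated proteins such as Ras itself. The normalised signal of FDPS was 4.69, 4.84 and 5.39 in single culture and 3.79, 5.15 and 5.08 in mix culture. Only mix replicate 1 stood apart, 1.87-fold below its slide partner, and the slide 2 means differed by less than 0.01. The fitted change was -0.30 (SE 0.39, 95% interval -1.23 to 0.63, adjusted p = 0.941). Of the others, HMGCS1, which condenses acetoacetyl-CoA into HMG-CoA, differed by -0.63 on slide 1 and by 0.18 on slide 2. MVK and PMVK, the kinases that phosphorylate mevalonate in turn, differed by -0.60 and -0.58 on slide 1 and by 0.05 and -0.04 on slide 2. ACAT2, the thiolase at the start of the route, differed by -0.38 and 0.02. MVD, which decarboxylates mevalonate diphosphate, was higher in mix culture on both slides, by 0.22 and 0.08.

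In the squalene and sterol arm, all 10 genes present were lower in mix culture and none was called. SQLE oxidises squalene and is a rate-limiting step of the sterol branch. On the arrays of single culture SQLE read 3.55, 3.21 and 3.45 in normalised signal, and on those of mix culture 2.55, 3.39 and 3.18. Mix replicate 1 was the lowest array by a wide margin, 1.99-fold below single replicate 1, while the slide 2 values of both cultures interleaved. The fitted change was -0.36 (SE 0.24, 95% interval -0.94 to 0.21, adjusted p = 0.803). The change on slide 2 exceeded that on slide 1 by 0.94 (SE 0.25, limma interaction, adjusted p = 0.346). CYP51A1, the lanosterol demethylase, had normalised signals of 5.86, 5.13 and 5.17 in single culture and 5.25, 4.92 and 5.06 in mix culture. In this brightest probe it was lower on both slides, but mix replicate 1 lay above single replicates 2 and 3, which sit on the other slide. The change was -0.31 with an SE of 0.23 without slide (95% interval -0.87 to 0.24, adjusted p = 0.838), and with slide in the fit the interval was -0.60 to -0.02 and the adjusted p 0.17. The further probe of CYP51A1 differed by -0.52 on slide 1 and by 0.11 on slide 2, so its probes disagreed in sign on slide 2.

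The other genes of this arm followed the same order of slides. FDFT1, the squalene synthase, differed by -0.89 on slide 1 and by 0.02 on slide 2. DHCR7, which completes cholesterol from 7-dehydrocholesterol, differed by -0.80 and 0.26. EBP, a sterol isomerase, differed by -0.75 and -0.06, and it was the only gene of the arm whose culture groups did not overlap. NSDHL and MSMO1, which act in the removal of the sterol C4 methyl groups, differed by -0.68 and -0.66 on slide 1 and by 0.21 and -0.02 on slide 2. HSD17B7, a further enzyme of that step, differed by -0.45 and 0.09. TM7SF2, a sterol reductase, and SC5D, a sterol desaturase, moved least on slide 1, by -0.23 and -0.18.

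Of the genes that sense and move sterols, all 5 present were lower in mix culture on both slides in their brightest probe. None was called. INSIG1, the retention protein that also responds to SREBP, had the largest fitted change of the 32 genes when each was read by its brightest probe. In replicates 1 to 3 its normalised signal was 2.90, 2.19 and 2.92 in single culture and 1.41, 2.18 and 2.33 in mix culture. Mix replicate 1 was the lowest, 2.82-fold below its slide partner, and single replicate 2 fell among the mix values, so the groups overlapped. The INSIG1 log2 difference in the fit was -0.70 (SE 0.31, 95% interval -1.43 to 0.04, adjusted p = 0.609), and with slide in the fit the interval was -1.32 to -0.08 and the adjusted p 0.156. Its 3 probes agreed on slide 1 and not on slide 2. The probe printed above differed by -0.89 and 0.06, and the other further probe by -0.68 and 0.12. Their fitted changes were -0.26 and -0.15. With the mean of a gene's probes, INSIG1 changed by -0.37, less than IDI1 (-0.45) and SREBF2 (-0.47).

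SREBF2 encodes SREBP-2, the factor for sterol genes. SREBF2 had normalised signals of -1.01, 0.15 and 0.17 in single culture and -1.87, -0.06 and -0.17 in mix culture. The slides stood further apart than the cultures did, and within each slide every mix array was below every single array. The fitted change was -0.47, with an SE of 0.55 without slide (adjusted p = 0.926) and of 0.14 with it (95% interval -0.80 to -0.15, adjusted p = 0.0847). SREBF1, which encodes the SREBP-1 factors of fatty acid genes, differed by a like amount on both slides, -0.20 and -0.23, in its brightest probe. Its further probes differed by -0.04 and 0.00 on slide 1 and by 0.54 and 0.08 on slide 2, so its probes disagreed in sign. SCAP, the SREBP escort, differed by -0.25 and -0.02, and STARD4, a cytosolic sterol carrier, by -0.21 and -0.17. The further probe of SCAP differed by 0.17 and -0.02, and that of STARD4 by -0.25 and -0.20.

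**Figure D4:**
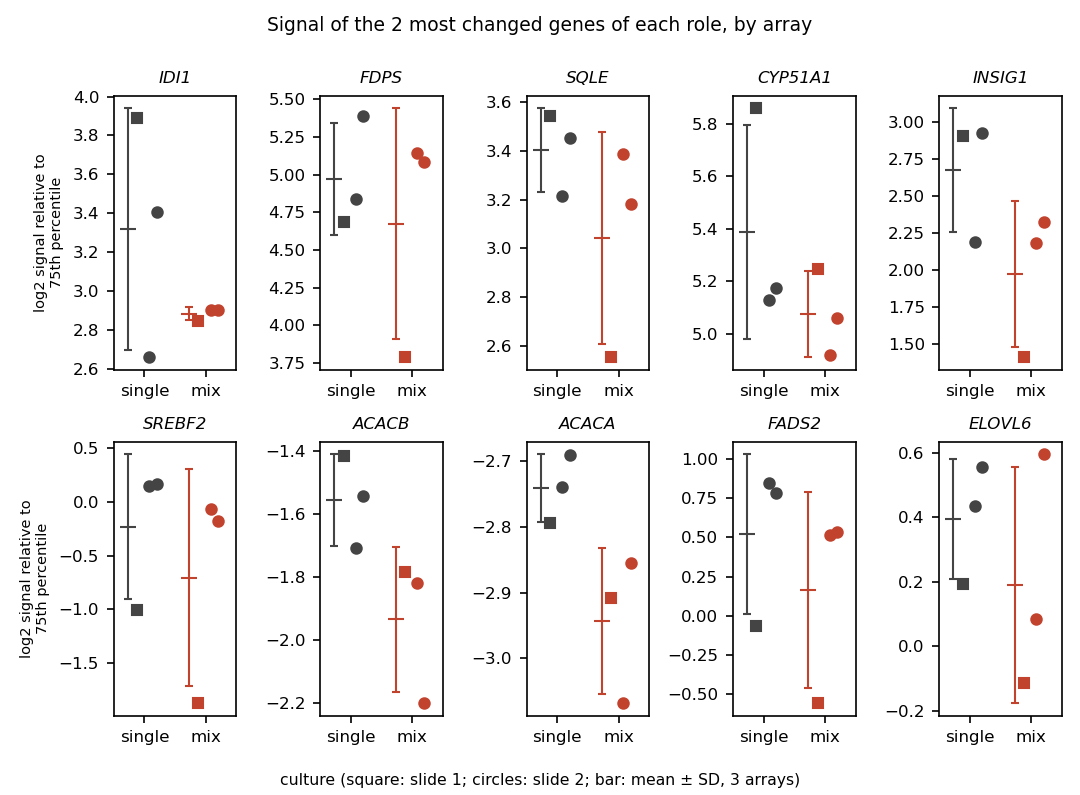
Normalised signal (y axis, log2 relative to the 75th percentile of the array) on each array of single culture (grey) and mix culture (red), for the 2 genes with the largest change in each role. Squares are slide 1, circles are slide 2, and bars are the mean ± SD of 3 arrays; the scale differs between panels. The mix square is the lowest point for FDPS, SQLE, INSIG1, SREBF2, FADS2 and ELOVL6, and not for IDI1, CYP51A1, ACACB or ACACA.

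Of the genes of fatty acid synthesis, all 4 present were lower in mix culture in their brightest probe. The differences ran from -0.37 to -0.11 on slide 1 and from -0.38 to 0.02 on slide 2. ACACB and ACACA are acetyl-CoA carboxylases, which make malonyl-CoA. The normalised signal of ACACB was -1.42, -1.71 and -1.54 in single culture and -1.78, -1.82 and -2.20 in mix culture. Every mix array lay below every single array, and the difference was -0.37 on slide 1 and -0.38 on slide 2. Fitted over all arrays the change was -0.38 (SE 0.18, 95% interval -0.80 to 0.05, adjusted p = 0.652), and with slide in the fit the adjusted p was 0.119. ACACA had normalised signals of -2.79, -2.74 and -2.69 in single culture and -2.91, -3.07 and -2.86 in mix culture. Here too the groups did not overlap, and the change of -0.20 (SE 0.15, 95% interval -0.55 to 0.14, adjusted p = 0.82) was small. Together with EBP these made 3 of 32 genes with groups that did not overlap, all lower in mix culture, while 8.66% of all probes were lower without overlap and 16.5% did not overlap in either direction. ACLY and ACSS2, which supply cytosolic acetyl-CoA from citrate and from acetate, differed by -0.19 and -0.11 on slide 1 and by 0.02 and 0.01 on slide 2. The further probes of ACLY differed by 0.09, -0.14 and 0.15 on slide 1 and by 0.37, 0.04 and -0.07 on slide 2. The probes of ACLY thus disagreed in sign.

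Among the genes of desaturation and elongation, 4 of 6 were lower in mix culture, and none was called. FADS2, the delta-6 desaturase of polyunsaturated fatty acids, had normalised signals of -0.07, 0.85 and 0.78 in single culture and -0.56, 0.52 and 0.53 in mix culture. As with SREBF2, each mix array was below the single arrays of its slide. The log2 change was -0.36, with an SE of 0.38 without slide (95% interval -1.24 to 0.53, adjusted p = 0.909) and of 0.10 with it (95% interval -0.60 to -0.12, adjusted p = 0.0815), the lowest adjusted p of the 32 genes in that fit. Its further probes differed by -0.08 and -0.50 on slide 1 and by less than 0.01 in size on slide 2 in both cases. ELOVL6, which elongates long saturated chains, had normalised signals of 0.19, 0.43 and 0.56 in single culture and -0.11, 0.09 and 0.60 in mix culture. The groups overlapped, and the change was -0.21 (SE 0.22, 95% interval -0.73 to 0.32, adjusted p = 0.917). SCD, the main stearoyl-CoA desaturase, differed by -0.58 on slide 1 and by less than 0.01 on slide 2. ELOVL1, which elongates very long chains, differed by -0.44 and 0.03. SCD5 and ELOVL5, a second desaturase and an elongase of polyunsaturated chains, were higher in mix culture by 0.08 each on the log2 scale.

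The further probes of the same genes gave a like picture. Of 63 probes for the 32 genes, 30 were tested besides the brightest ones, from 19 genes, and none was called with or without slide in the fit. On slide 1, 24 of the 30 were lower in mix culture, 14 of them by at least 1.5-fold, with a median difference of -0.57. On slide 2 their median difference was 0.06. These probes read the same RNA samples, so they add no replicates. The further EBP probes were placed on chromosome 8 and its brightest probe on chromosome X, so they may read another locus under that symbol.

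Sterol genes also varied between arrays of 1 culture. On slide 2, single replicate 3 exceeded single replicate 2 for 24 of the 32 genes (49.06% of all probes). The median log2 difference was 0.12, against 0.00 over all probes. The difference was 0.74 for IDI1 and 0.73 for INSIG1, the only genes of the 32 past 1.5-fold, where 0.95% of all probes lay that high. FDPS followed with 0.55, FDFT1 with 0.40 and HMGCS1 with 0.38. Between the mix replicates on slide 2 the median difference was 0.02, and the values ran from -0.38 to 0.51. When single replicate 2 was left out of the fit with slide, INSIG1 (log2 change -1.02, SE 0.20, adjusted p = 0.0277) and IDI1 (-0.73, SE 0.16, adjusted p = 0.0398) were called, where 5.82% of all probes were. With any other array left out of that fit, limma called none of the 32 genes. Leaving arrays out of the fit with slide was chosen after the data were seen. Single replicate 2 was the lowest single array for INSIG1 and IDI1, so these 2 calls give no support of their own.

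Of the 4 listed genes without a probe under their symbol, FASN and FADS1 were named by the description column of the array only and were kept apart from the 32. FASN, the fatty acid synthase, had a normalised signal of 1.19, 2.54 and 2.32 in single culture and 0.50, 2.06 and 2.47 in mix culture through its 1 probe. It differed by -0.69 on slide 1 and overlapped on slide 2, with a fitted change of -0.34 (SE 0.57, adjusted p = 0.957). FADS1, the delta-5 desaturase, was read by 2 probes. The one placed on its Ensembl transcript had normalised signals of -1.27, -0.49 and -0.45 in single culture and -0.67, 0.30 and 0.20 in mix culture. It was higher in mix culture on both slides, by 0.60 and 0.72, opposite to FADS2. The change was 0.68 with an adjusted p of 0.674 without slide, and of 0.00724 with slide in the fit, where the SE was 0.10 in place of 0.33. The other FADS1 probe changed by 0.45, with an adjusted p of 0.0786 in the fit with slide. LSS, the lanosterol synthase, and INSIG2, the partner of INSIG1, were named in neither column and were not analysed here.

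A list of 83 other genes of lipid metabolism covered uptake and efflux of sterols, oxysterols, SREBP processing, glyceride synthesis and fatty acid oxidation. Of these, 71 were present and 63 tested. limma called none without slide (0.883% of all probes), and 6 had an unadjusted p under 0.05 (8.71% of all probes). The methods' t-test called none after adjustment (0.03% of all probes) and 7 before it (9.73% of all probes). In mix culture 34 of the 63 were lower (57.96% of all probes), the median change being -0.04 (-0.05 over all probes). On slide 1 their median difference was -0.07, with 7 lower and 6 higher by at least 1.5-fold. Of all 26623 probes tested, 1884 were lower and 2404 higher by that much on slide 1. With slide in the fit, 6 of the 63 were called, 4 of them higher, where 7.2% of all probes were called. For 2 of the higher ones, CYP7B1 and PPARA, the probe was well above background on 1 of 3 single arrays and entered the test through the mix arrays, where it was brighter. By list these were 1 of 4 genes of esterification and oxysterols, 3 of 18 of other fatty acid and glyceride synthesis and 2 of 13 of fatty acid oxidation and uptake. None was called among 6 genes of other sterol synthesis, 10 of sterol uptake, 6 of efflux and nuclear receptors and 6 of SREBP processing. At an unadjusted p under 0.05 in the same fit there were 3 for sterol uptake and 0 for the other 3 of these lists. That share was 25.9% over all probes.

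MLXIPL encodes ChREBP, the carbohydrate-responsive factor that drives fatty acid synthesis genes alongside SREBP-1. MLXIPL read 1.55, 1.22 and 1.27 in single culture and 2.69, 2.45 and 2.17 in mix culture. All mix arrays lay above all single arrays, and the difference was 1.14 on slide 1 and 1.06 on slide 2. The fitted log2 change was 1.09 (SE 0.19, 95% interval 0.63 to 1.54), 2.12-fold, with an adjusted p of 0.0681 without slide and of 0.00153 with it. PPARA encodes a nuclear receptor of fatty acid oxidation, and its probe was dim, well above background on 1 of 3 single arrays and on all mix arrays. PPARA read -4.44, -5.08 and -5.84 in single culture and -2.97, -4.25 and -4.44 in mix culture. The groups only just separated. The fitted change of 1.23 (SE 0.48, adjusted p = 0.521 without slide and 0.00964 with it) is set against single arrays of which 2 had no measured level, and with normexp background correction it was 0.14.

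CYP7B1, an oxysterol hydroxylase, was likewise measured on 1 of 3 single arrays and on all mix arrays. Its normalised signal was -7.86, -5.22 and -5.74 in single culture and -2.73, -4.15 and -3.75 in mix culture. With 2 of 3 single arrays lacking a measured level, neither the differences of 5.12 on slide 1 and 1.53 on slide 2 nor the fitted change of 2.73 (SE 0.70, adjusted p = 0.217 without slide and 0.0393 with it) has a firm size. With normexp the change was 0.35. The remaining calls with slide in the fit were named after their values were seen. ACSL4, which activates polyunsaturated fatty acids, rose by 0.66 (adjusted p = 0.0125). GPAM, the first acyltransferase of glyceride synthesis, fell by 0.51 (adjusted p = 0.043), and PPARG, a nuclear receptor of lipid storage, fell by 0.45 (adjusted p = 0.0407). These 3 genes passed neither the fit without slide (adjusted p from 0.146 to 0.568) nor, for GPAM and PPARG, the fit with the replicate block (0.0655 and 0.0796).

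**Figure D5:**
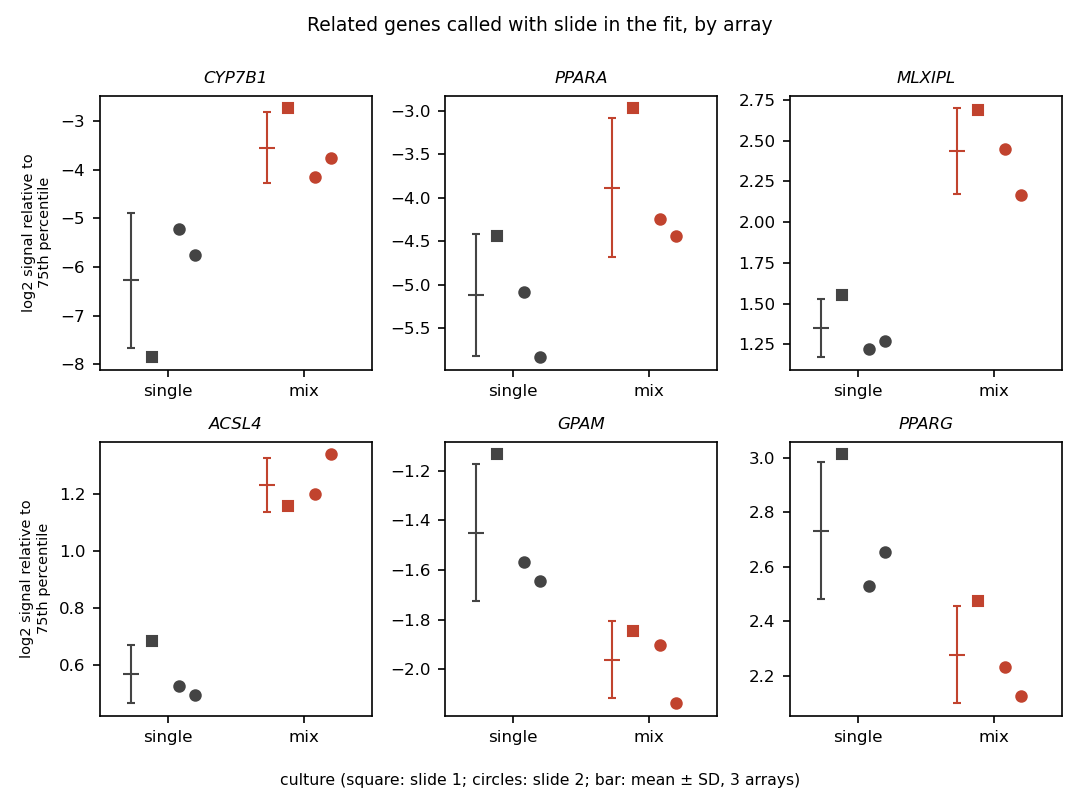
Normalised signal (y axis, log2 relative to the 75th percentile of the array) on each array of single culture (grey) and mix culture (red) for the 6 other lipid genes called with slide in the fit. Squares are slide 1, circles are slide 2, and bars are the mean ± SD of 3 arrays; the scale differs between panels. In every panel the cultures do not overlap, and CYP7B1 and PPARA are dim in single culture.

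The arrays carried the markers of the labelled cell type. Of 12 markers of kidney tubule epithelium, 10 were present by name, and all 10 were well above background on every array. Their summed signal, in units of each array's 75th percentile, was 449 to 525 in single culture and 336 to 450 in mix culture, and mix replicate 1 had the lowest sum. Of the 10, 3 (CDH1, KRT18 and CLDN7) were lower and 1 (PAX8) was higher by at least 1.5-fold on slide 1. On slide 2 these differed by -0.38, -0.16, -0.03 and 0.40, in that order. With slide in the limma fit, 1 of the 10 was called, CDH1 (adjusted p = 0.0444), where 7.2% of all probes were. Without slide the adjusted p of CDH1 was 0.384. The median of the 10 was 2.25 in single replicate 1 and 2.42 in mix replicate 1. Of 8 fibroblast, 7 leukocyte and 5 endothelial markers, 3 to 5, 4 to 6 and 3 to 4 were well above background on an array. The summed signal was 1.5 to 2.58 in single and 1.40 to 2.11 in mix culture for fibroblast markers, 1.58 to 1.91 and 1.48 to 1.71 for leukocyte markers, and 5.51 to 14.1 and 4.67 to 14.4 for endothelial markers. The defining markers COL3A1, DCN, PDGFRA, PTPRC and TEK were above background on no array. Of 10 interferon response genes, 8 were present and all 8 were called higher in mix culture, by 1.77 to 4.68 on the log2 scale, and all 8 were also higher on each slide by at least 1.5-fold. The part of these differences in the values of the lipid synthesis genes was not tested.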

How the data were processed

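The deposited scanner files hold linear spot intensity values, 1 file for each array, background-subtracted by Agilent Feature Extraction (11.5.1.1 for slide 1, 12.1.1.1 for slide 2, per the file headers). A second file from the authors gives log2 values for these arrays, which comparison with the scanner files showed to be centred within slide. It served as an alternative. From the scanner files, log2 signals were taken, spots flagged as outliers (5 to 9 per array) and control spots were dropped, spots of a probe were averaged, and the 75th percentile of each array was subtracted. The 26623 probes well above background on all arrays of at least 1 group were tested by moderated linear models (limma 3.58.1, R 4.3.3), two-sided, and p-values were adjusted over all of them by Benjamini-Hochberg, with calls at an adjusted p under 0.05. The fit was tested on simulated data. Changes are mix over single culture. With 6 arrays, their number limits the precision.

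Same-numbered arrays deviated together from their group means (correlations of 0.801, 0.53 and 0.572), and the replicate block treated them as pairs. Arrays of slide 2 with different numbers did so more strongly (0.61 and 0.632), so these values do not show a pairing by number within slide 2. The slide was read from the file headers.

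The genes, the lists and the tests were chosen with earlier results of these data known. Named with full values were the 2 genes of each role with the largest change, the genes without a probe, and the 3 largest changes among other lipid genes called with slide in the fit. Values that the rule also asked for are in part not reported here. Others were named after their values were seen. Symbols are those of the array design. The alternatives were blocks for slide and replicate, slide 2 alone, 2 filters, quantile normalization, normexp with an offset of 50, the authors' table, the mean of a gene's probes, the methods' t-test and each array left out of the fit without slide. Leaving arrays out of the fit with slide, and the interaction of culture and slide, were added after the data were seen.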

Additional observations from a re-analysis of the deposited data

How the results depend on the processing

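None of the 32 lipid synthesis genes was called under any alternative but 2. The authors' table called 2 (FADS2 and SREBF2), in a fit that did not account for its centring within slide. The fit with slide called 0 to 2 when arrays were left out, 2 being without single replicate 2. Leaving arrays out of that fit was chosen after the data were seen. The median log2 change of -0.19 was -0.47 in the slide 1 pair and ran from -0.25 to -0.04 when arrays were left out, -0.04 being without mix replicate 1. Of the other lipid genes, 0 were called without a block, 3 with the replicate block, also with mix replicates 2 and 3 exchanged (chosen after seeing the data), 6 with slide, 3 on slide 2 alone, 1 after quantile normalization and 10 in the authors' table. The count with slide ran from 2 to 5 when arrays were left out (3 without single replicate 1 or mix replicate 1, 2 without single replicate 3 or mix replicate 3). Among all probes, calls numbered 235 in the main setting, 143 for probes above background on all arrays, 222 without a filter, 233 after quantile normalization, 132 with normexp, 1917 with slide, 1399 with the replicate block, 983 on slide 2 alone, 4077 in the authors' table and 8 with the methods' t-test.

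FDPS changed sign on slide 2 alone (8.69e-05). Leaving out arrays moved FDPS from -0.54 to 0.14, SREBF2 from -0.86 to 0.11 and FADS2 from -0.65 to 0.0047, and each was above 0 without mix replicate 1 alone. That fit has no slide term and leaves single replicate 1 alone on its slide. With slide in the fit and the same array left out, SREBF2 was at -0.28 and FADS2 at -0.29. None of these values was called in either direction. MLXIPL passed the threshold with the replicate block (adjusted p = 0.00359), on slide 2 alone (0.00961) and after quantile normalization (0.0429), and PPARA with the replicate block (0.00528). The replicate block changed no other call among the 10 named lipid synthesis genes and CYP7B1. The cause of these differences was not tested. CYP7B1 and PPARA gave no value when all 6 arrays had to be above background. With 3 arrays a group, the median SE of a lipid synthesis gene was 0.24 on the log2 scale without slide and 0.14 with it, so small changes could not be resolved.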
